A study of Drosophila melanogaster with 8 samples.

Results

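The retrotransposon copia was followed in wing imaginal discs of Drosophila melanogaster, the larval epithelia that form the adult wing and thorax. Its members are the 39 rows of the deposited table whose insertion name begins with copia{, out of 5578 rows for transposable element insertions and 23932 rows in all. Of these 39 rows, 35 carry an FBti identifier and 4 an RR identifier. The element was singled out because of its values in these same libraries, so the difference of copia between the groups is described here and not tested.

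The group labelled ecd-RNAi carried nub-Gal4, UAS-mRFP and UAS-ecd-RNAi, and the control group nub-Gal4 and UAS-mRFP. The driver nub-Gal4 is active in the wing pouch and part of the hinge, so a share of each disc lay outside the domain of the RNAi. Both groups express the red fluorescent protein mRFP. Each of the 4 libraries per group was made from 150 discs of wandering L3 larvae kept at 25 °C, taken at day 7 after egg laying, by total RNA sequencing after removal of ribosomal RNA, and the labels call the libraries biological replicates. The product of ecd, Ecdysoneless, acts in pre-mRNA splicing, and the title of the series names spliceosome dysfunction and the transcription factor Xrp1.

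The element copia is the namesake of the Ty1/copia class of retrotransposons, which are flanked by long terminal repeats (LTRs). Its full-length RNA is both the template for reverse transcription and the messenger for the Gag and Pol proteins, and a shorter, spliced RNA encodes Gag alone, which assembles into virus-like particles. In somatic cells of flies transposon RNA is cut by AGO2 loaded with small interfering RNAs that Dcr-2 makes, and in the gonads it is silenced by Piwi-interacting RNAs (piRNAs). Copies of copia are nearly identical in sequence. A read that matches several copies is shared out among them by estimation, so the sum over the 39 rows is better determined than the value of any single row. Each library is a mix of whole discs, in which fewer cells of a type and less RNA per cell cannot be told apart. The number of genomic copies of copia in either cross was not measured here.

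Values are DESeq2-normalized counts, a signal that corrects for library depth and not for the length of an insertion. Summed over all rows they came to between 27403922 and 32623572 in libraries labelled ecd-RNAi and between 35110994 and 37879705 in control libraries. The most frequent low value, taken as the worth of 1 read, put the depth at roughly 31100000 to 37500000 reads in libraries labelled ecd-RNAi and 29500000 to 36500000 reads in control libraries. Ribosomal RNA made up 29.4% ± 3.91 of the signal in libraries labelled ecd-RNAi and 51.0% ± 2.07 in control libraries (SD, n = 4 each). The targeted transcript, ecd, had 1416, 1208, 1307 and 1462 normalized counts in the libraries labelled ecd-RNAi, replicates 1 to 4, and 1052, 1015, 1047 and 998 in the control libraries. The target was thus higher in every library labelled ecd-RNAi, which goes against the label, and each direction below is that of the libraries so labelled. The table does not separate reads of the RNAi hairpin from those of the ecd transcript, so their part in these counts was not tested. The 8 wing disc markers, among them vg and nub, were all present, summing to between 61017 and 63075 in libraries labelled ecd-RNAi and between 78778 and 82211 in control libraries. Of the 8, 6 were called lower and 2 higher. The gene ds was the largest part of the sum, with 26151 to 27883 in libraries labelled ecd-RNAi and 37873 to 39345 in controls. wg went the other way, with 2573 to 3430 in libraries labelled ecd-RNAi and 1917 to 2107 in controls. Some other marker lists differed between the groups as well. The 6 adult muscle precursor markers summed to between 3451 and 4078 in libraries labelled ecd-RNAi and between 5328 and 5638 in controls, with 5 lower. The 4 salivary gland markers summed to between 1.67 and 11.3 in libraries labelled ecd-RNAi and between 73.4 and 166 in controls. Of 6 neuron markers 3 were lower, of 6 hemocyte markers 2 were higher, and of 6 tracheal markers 2 were higher and 3 lower. For comparison, limma called 30.6% of all tested genes higher and 31.5% lower. The hemocyte sums overlapped between the groups. Of the 5 germline markers vas, bam and aly lay below a mean of 10, bgcn between 23.8 and 45.6 over all libraries, and ovo, between 6418 and 7315, made up most of the list's sum; neither bgcn nor ovo was called. The part of these cell types in the copia values was not tested.

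Among controls, replicate 2 stood apart. It held the highest copia sum, and also the highest control values of Ilp8 (79.1, the other controls between 6.20 and 30.9) and GstE6 (81.0, the others between 15.8 and 17.8), a relaxin-like peptide gene and a glutathione S-transferase gene whose means were 6448 and 2694 in libraries labelled ecd-RNAi. Its 5 fat body markers summed to 6845, the highest control value, the lowest being 979. In libraries labelled ecd-RNAi that sum ran between 578 in replicate 2, the highest for copia, and 4902 in replicate 4, the lowest for copia. The part of either in the copia values was not tested, and results that rest on control replicate 2 are given with and without it.

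The summed signal of copia was 1626669, 2336818, 2018535 and 1352859 normalized counts in ecd-RNAi-labelled replicates 1 to 4, against 14914, 43613, 19639.8 and 14896 in control replicates 1 to 4. The groups lay far apart: the lowest library labelled ecd-RNAi was 31.02 times the highest control. The means were 1833720.2 ± 432574 in libraries labelled ecd-RNAi and 23266 ± 13747 in controls (SD, n = 4 each), a ratio of 78.8 (log2 ratio 6.30) with all libraries and of 111 without control replicate 2. Replicate 2 was the highest of the libraries labelled ecd-RNAi and replicate 4 the lowest. Set against the signal of protein-coding genes, copia came to 11.8% ± 2.63 in libraries labelled ecd-RNAi and 0.147% ± 0.0868 in controls.

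**Figure D1:**
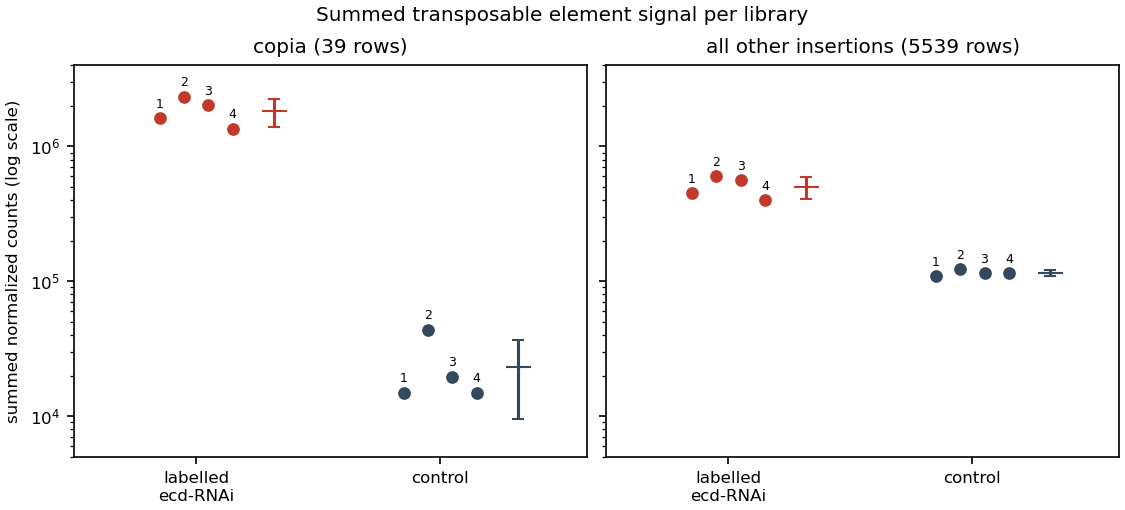
Summed normalized counts (log scale) of the 39 copia rows, left, and of all other insertions, right, in each library labelled ecd-RNAi and each control library. Points are libraries with their replicate number, and the bar beside them is the mean with the SD. The lowest copia sum in a library labelled ecd-RNAi was 1352859 and the highest in a control library, replicate 2, was 43613.

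As a share of the whole library copia made up 6.13% ± 1.38 of the signal in libraries labelled ecd-RNAi and 0.0632% ± 0.0357 in controls. It was 78.3% ± 0.956 of the signal of all insertions in libraries labelled ecd-RNAi and 16.1% ± 6.88 in controls. All other insertions together summed to 503693 ± 94870 in libraries labelled ecd-RNAi and 115392 ± 5781 in controls, a ratio of 4.37. These sums include an unnamed row, RR51475, that has the position and the values of copia{}539. Without it the other insertions came to 444105 ± 81926 in libraries labelled ecd-RNAi and 114355 ± 4515 in controls, a ratio of 3.88. A single family thus carried most of the insertion signal in each library labelled ecd-RNAi, between 77.1% and 79.5%, while in controls its share lay between 11.4% and 26.2%.

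The 39 insertions differ mostly in whether they are whole. There are 32 of at least 4000 bases, the shortest of them 4424 and the longest 6856 bases, and 25 are within 5 bases of the median length of 5145 bases, about that of a complete element with both LTRs. The other 7 are fragments of 25 to 1238 bases. By chromosome arm 12 lie on 2L, 8 on 2R, 9 on 3L, 5 on 3R and 5 on X, with 21 on the plus strand and 18 on the minus strand. In the annotation of BDGP6, 17 insertions overlap a gene and 22 overlap none.

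Of the 39 rows 28 were higher in every library labelled ecd-RNAi than in any control, 2 were lower without overlap and 9 overlapped. Among all 10008 rows whose mean over the libraries was 10 normalized counts or more, 28.3% were higher without overlap and 28.5% lower; among the 596 other insertions with such a mean, 29.5% were higher without overlap and 19.1% lower. That mean was reached by 32 copia rows, and the 7 rows below it include 2 that are listed at 0 in all 8 libraries. All of the 28 higher rows belong to the 32 insertions of at least 4000 bases, and none to the 7 fragments. The long insertions carried 99.997% or more of the copia signal in every library labelled ecd-RNAi. The fragments stayed low in both groups: the highest of them, copia{}2248 on chromosome 2R (6449307 to 6450544), had 20.8, 36.3, 32.4 and 27.3 normalized counts in libraries labelled ecd-RNAi and 27.8, 17.9, 32.1 and 19.2 in controls, and the groups overlapped.

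**Figure D2:**
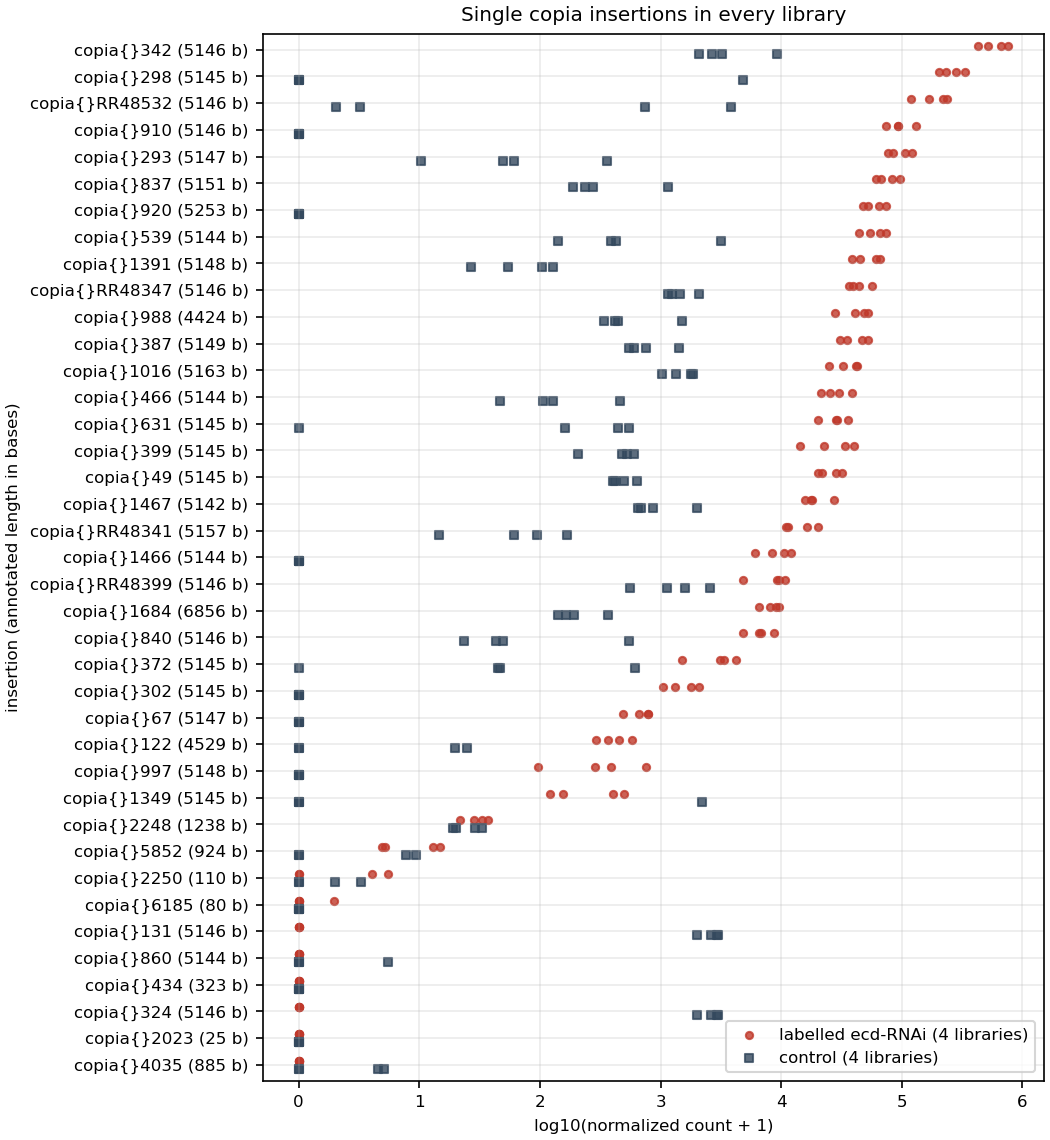
Each of the 39 copia insertions, ordered from top to bottom by its mean in libraries labelled ecd-RNAi, with log10(normalized count + 1) on the horizontal axis. Circles are the 4 libraries labelled ecd-RNAi and squares the 4 control libraries; 28 insertions are higher without overlap, and copia{}131 and copia{}324 are at 0 in the libraries labelled ecd-RNAi and between 1993 and 2976 in controls.

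The insertion copia{}342 led the family. It lies on chromosome 2L (11563692 to 11568837, minus strand, BDGP6), 5146 bases long and outside any annotated gene. It had 518762, 763896, 660288 and 430626 normalized counts in libraries labelled ecd-RNAi, against 2100, 9153, 3248 and 2655 in controls. Every library labelled ecd-RNAi was above every control, by a ratio of means of 138, or 222 without control replicate 2. Per kilobase of insertion this is 115312 normalized counts in libraries labelled ecd-RNAi and 833 in controls. The median over the 32 long insertions was 5168 per kilobase in libraries labelled ecd-RNAi and 72.1 in controls.

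Next came copia{}298 (chromosome 2L, 3073087 to 3078231, plus strand), which lies in an intron of toc (toucan) on the opposite strand. It had 232467, 335274, 279441 and 202788.5 normalized counts in libraries labelled ecd-RNAi, and in controls 4840 in replicate 2 and 0 in the other replicates. Its control mean therefore rests on 1 library, and the ratio of 217 cannot be formed without it. The third, copia{}RR48532 on chromosome 2R (4117025 to 4122170, plus strand), had 167767, 236066, 218735 and 120186 in libraries labelled ecd-RNAi and 1.04, 3849, 736 and 2.26 in controls. Its ratio of 162 with all libraries became 753 without control replicate 2.

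A set of 6 long insertions was listed at 0 in all 4 controls and above 0 in each library labelled ecd-RNAi. The most abundant of them was copia{}910 (chromosome 3L, 2108306 to 2113451, minus strand), in an intron of sls, which encodes the titin-like muscle protein Sallimus. It had 92556, 131609, 93552 and 73591 normalized counts in libraries labelled ecd-RNAi. The second was copia{}920 (chromosome 3L, 3601354 to 3606606, plus strand), in an intron of the cyclin-dependent kinase gene Eip63E, with 52164, 73834, 65266 and 47501. The others were copia{}1466, copia{}302, copia{}67 and copia{}997, with means between 380 and 9299 in libraries labelled ecd-RNAi. Since near-identical copies share reads, a value of 0 says only that no signal was assigned to that copy, and no ratio is given.

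The insertions copia{}131 and copia{}324 ran the other way. They lie in introns of rut on chromosome X (14818820 to 14823965, minus strand) and of Tg on chromosome 2L (8013669 to 8018814, plus strand), each in the orientation of the gene. Their values were equal to 4 decimals in all 8 libraries. Both were listed at 0 in all libraries labelled ecd-RNAi and at 2632, 1993, 2976 and 2931 in control replicates 1 to 4. Control replicate 2, the highest control for the family, was the lowest for this pair. Together the insertions that were at 0 in every library labelled ecd-RNAi made up 35.3%, 9.14%, 30.3% and 39.4% of the copia signal in control replicates 1 to 4.

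Among the other abundant copies, copia{}293 (chromosome 2L, 2294097 to 2299243) had the largest ratio of any insertion above 0 in both groups. It averaged 97423 ± 19800 normalized counts in libraries labelled ecd-RNAi and 120 ± 162 in controls, a ratio of 813, or 2480 without control replicate 2. The second largest belonged to copia{}1391 (chromosome 3R, 20109593 to 20114740), with 52777 ± 13059 and 77.3 ± 46.2, a ratio of 682. The insertion copia{}837 (chromosome 2R, 16539693 to 16544843) had a ratio of 166, or 331 without control replicate 2. For copia{}539 (chromosome 2L, 22201408 to 22206551) it was 57.5, or 188 without that control. The lowest ratio was that of copia{}1349 (chromosome 3R, 12920208 to 12925352), at 498, 156, 402 and 120 in libraries labelled ecd-RNAi and at 2198 in control replicate 2 and 0 in the other controls, so its ratio of 0.535 also rests on that 1 library.

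Over the 26 insertions above 0 in both groups the median ratio of means was 50.9, with 21 at 10 or more, 8 at 100 or more and 1 below 1. The 26 include copia{}5852 and copia{}2250, with means of 6.13 and 1.36. Over the 9937 rows of the table with a mean of at least 10 and signal in both groups the median was 1.00. It was 1.13 over the 571 such insertions of other families. These ratios come from the contrast that singled copia out and are given as a description.

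Which copies made up the signal differed between the groups. In the libraries labelled ecd-RNAi copia{}342 held between 31.8% and 32.7% of the sum, and the leading 3 copies between 55.7% and 57.4%. The composition was nearly the same in all 4 of these libraries although their sums differed: the rank correlation across the 39 insertions was between 0.991 and 0.997 for the 6 pairs of libraries. In controls copia{}342 held 17.4% ± 2.87 (SD, n = 4). The pair copia{}131 and copia{}324 led in replicates 1 and 4, and copia{}342 in replicates 2 and 3. Between control libraries the correlation was 0.619 to 0.947 over 6 pairs, lowest for pairs with replicate 2, and between the groups 0.246 to 0.499 over 16 pairs. The points are insertions, not replicates, and share reads. Of the 16 pairs, the 4 highest values all involved control replicate 2.

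**Figure D3:**
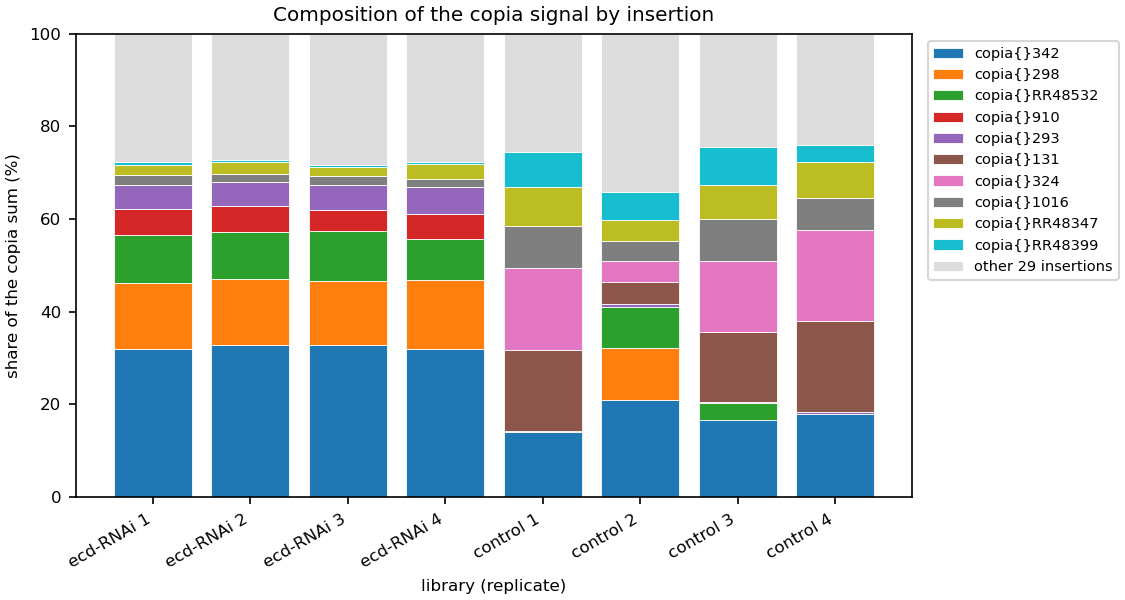
Share of the summed copia signal (%) held by 10 insertions and by the other 29, in each library labelled ecd-RNAi and each control library. The insertions copia{}342, copia{}298 and copia{}RR48532 lead in the libraries labelled ecd-RNAi with 55.7% to 57.4% together, and copia{}131 and copia{}324 appear only in the control bars.

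Although copia{}342 had the highest mean in both groups, other copies changed rank. The rows copia{}1016 (chromosome 3L, 16684075 to 16689237) and copia{}RR48347 (chromosome 3R, 4105093 to 4110238) ranked 13 and 10 of 39 in libraries labelled ecd-RNAi and 4 and 5 in controls. Their ratios, 23.6 and 29.8, were below the median of the family. At copia{}RR48399 (chromosome 3L, 25181125 to 25186270), which ranked 21 in libraries labelled ecd-RNAi and 6 in controls, the ratio was 5.90. The insertions that overlap a gene held between 32.5% and 33.9% of the signal in libraries labelled ecd-RNAi and between 44.4% and 57.8% in controls.

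The unnamed row RR51475 has the coordinates of copia{}539 and equal values in all libraries, 59588 ± 13122 in libraries labelled ecd-RNAi and 1037 ± 1444 in controls. It is counted above among the other insertions and not in the copia sum. With it the log2 ratio of the family is 6.28, and the family's share of the insertion signal 80.9% ± 0.963 in libraries labelled ecd-RNAi and 16.7% ± 7.71 in controls.

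Of the 80 families whose summed mean was at least 100 normalized counts, copia had the highest ratio of group means. Among the 79 others 28 were higher without overlap (35.4%), 18 were lower without overlap and 33 overlapped, with a median ratio of 1.23 and 6 ratios of 10 or more. The difference between copia and these families was not tested, since the same values chose it. The other Ty1/copia elements had lower ratios. One of them, with 16 rows, summed to 3367, 3219, 4322 and 1920.4 normalized counts in libraries labelled ecd-RNAi and to 879, 941, 869 and 1140.5 in controls, a ratio of 3.35 with no overlap. Dm88 summed to 2907, 8736, 4777 and 671 in libraries labelled ecd-RNAi and to 588, 686, 2447 and 4640 in controls, and the groups overlapped. Its ratio was 2.04, or 1.67 without control replicate 2. The rare element frogger, with 2 rows, summed to 119, 102, 83.0 and 16.2 in libraries labelled ecd-RNAi and to 0, 0, 29.7 and 5.63 in controls, and overlapped too.

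The other families with the highest sums in libraries labelled ecd-RNAi were the LTR elements flea, invader4 and 3S18. For flea the sums were 197009, 281732, 270199.6 and 179781 in libraries labelled ecd-RNAi and 5166, 9194, 5423 and 5855 in controls, a ratio of 36.2. For invader4 they were 58391, 81760.6, 73028 and 51142 in libraries labelled ecd-RNAi and 563, 2787, 806 and 619 in controls, a ratio of 55.4, or 99.7 without control replicate 2. In 3S18 the ratio was 1.77, from 23498 ± 2075 in libraries labelled ecd-RNAi and 13284 ± 559 in controls. In copia, flea and invader4 alike, replicate 2 was the highest and replicate 4 the lowest of the libraries labelled ecd-RNAi, and replicate 2 the highest control.

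**Figure D4:**
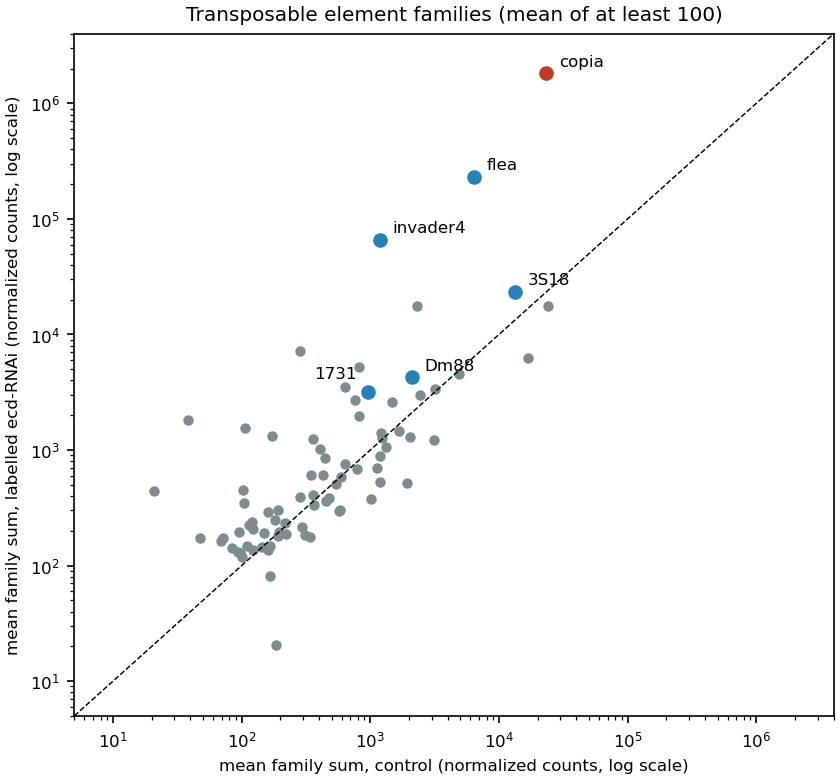
Mean summed normalized counts of transposable element families in libraries labelled ecd-RNAi (vertical, log scale) against controls (horizontal, log scale), for the 80 families with a mean of at least 100; the dashed line marks equal means. The copia family lies at 1833720.2 and 23266, above flea, invader4 and all other families.

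The genes around the insertions were tested, since they were picked by position alone. The question was how genes that hold copia copies in the BDGP6 annotation changed. Whether the flies of either group carry each copy at its annotated position was not examined. Tests used limma on log2(normalized count + 1) over the same 10008 rows, with the Benjamini-Hochberg adjusted p of a called gene below 0.05. Of the 9380 genes among them 62.1% were called, 30.6% higher and 31.5% lower. A gene overlapping an insertion was found in 18 cases, 17 of them with the copy in an intron and 1 with a fragment in an exon. Of these 18 genes 16 were tested, and 9 rose and 7 fell. The 9 count both CG43954 and Lasp, which share coordinates and values. Tg and beat-Vb, with control means of 8.51 and 7.27, passed the filter only through the libraries labelled ecd-RNAi. The median log2 fold change of the 16 tested hosts was 0.23, against 0.01 over all rows tested. Host genes went in both directions. Single copies share reads, so whether a host changed with its own copy was not tested.

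The host of copia{}324, Tg (FBgn0031975, transglutaminase, an enzyme of clotting and of cuticle cross-linking), had the largest change. It had 391, 391, 428 and 378 normalized counts in libraries labelled ecd-RNAi and 3.12, 21.7, 3.58 and 5.66 in controls (log2 fold change 5.77 with an SE of 0.47, limma adjusted p = 5.62e-06). The gene rose where its intronic copy was listed at 0. The host of copia{}131, rut (rutabaga, an adenylyl cyclase of memory formation), had 2001, 1977, 1863 and 1930 in libraries labelled ecd-RNAi and 2748, 2882, 2876 and 2785 in controls, and fell by 0.54 on the log2 scale (limma adjusted p = 1.05e-06). The 2 host genes of this pair went in opposite directions. Their copies have equal values and share reads, so the part of either copy in its host's change was not tested.

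The host of copia{}298, toc, which encodes a microtubule-associated protein, rose to 5903 ± 550 normalized counts in libraries labelled ecd-RNAi, against 3201 ± 211 in controls (log2 fold change 0.88, limma adjusted p = 5.04e-06). The host sls rose by 0.44 and Eip63E fell by 0.56 on the log2 scale (adjusted p = 0.000112 and 7.5e-07 in limma), both around copies that were at 0 in controls. Ir40a, an ionotropic receptor gene that holds copia{}539 in its own orientation, rose by 2.10 at a low level, 58.6 ± 12.2 in libraries labelled ecd-RNAi and 13.8 ± 6.22 in controls. Further hosts that rose were CG3726, by 1.20, and mbl, the splicing regulator muscleblind, by 0.25. Lasp, an actin-binding protein gene, and CG43954 rose by 0.23; they share coordinates and values, so their reads cannot be told apart. The host beat-Vb of copia{}1349 had a log2 fold change of 1.44 at 18.6 ± 6.08 in libraries labelled ecd-RNAi and 7.27 ± 4.12 in controls (limma adjusted p = 0.046, lost in 9 of 16 alternative fits, with adjusted p between 0.029 and 0.148 over them).

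Hosts that fell were CG34347, by 1.07 around copia{}1466, bbg, a PDZ domain protein gene, by 0.73, Nipped-A, the TRRAP homologue of histone acetyltransferase complexes, by 0.45, Gprk2, a G protein-coupled receptor kinase gene, by 0.39, and for, the cGMP-dependent protein kinase gene foraging, by 0.32 on the log2 scale. Of the 7 tested hosts with the copy on their own strand 4 rose. Of the 9 with it on the opposite strand 5 rose, with CG43954 and Lasp both counted.

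Of 32 genes within 5000 bases of an insertion but not overlapping it, 10 were tested, and 7 rose and 1 fell. Among all genes 30.6% were higher and 31.5% lower. CG12699, next to copia{}840, had a log2 fold change of 3.98 (54.1 ± 11.6 in libraries labelled ecd-RNAi, 3.52 ± 3.51 in controls, limma adjusted p = 0.000345). It passed the filter on low values only through the libraries labelled ecd-RNAi. loopin-1, next to copia{}837, had one of 2.22, with overlapping groups. The titin-like gene zormin, next to copia{}910, and CG42402, next to copia{}RR48347, rose by 0.93 and 0.94. CG14408, next to copia{}131, rose by 0.58, and FASN1, a fatty acid synthase gene next to copia{}298, fell by 0.47. lncRNA:CR46472 lies next to copia{}2023, a fragment of 25 bases listed at 0 in all libraries. This gene had a log2 fold change of 0.81 with overlapping groups (limma adjusted p = 0.0155, and 0.138 with quantile normalization, the 1 of 16 alternative fits that lost the call). The remaining 22 neighbours lay below the filter on low values. Among them lncRNA:CR44495, the sole annotated gene within 5000 bases of copia{}342, averaged 9.77 in libraries labelled ecd-RNAi and was listed at 0 in controls.

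**Figure D5:**
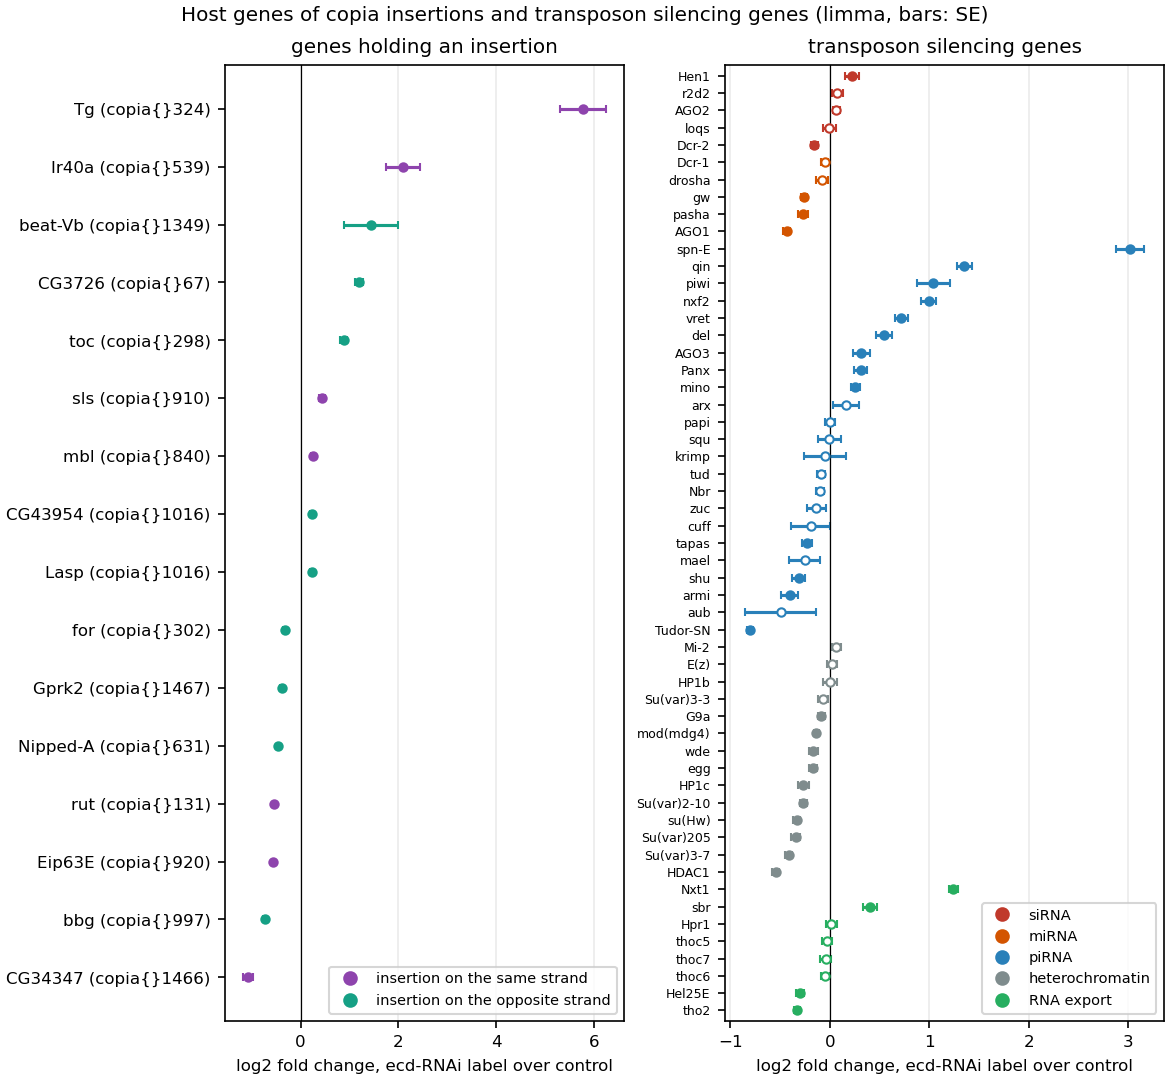
Log2 fold change, libraries labelled ecd-RNAi over control, with its SE from limma, for the 16 tested genes that hold a copia insertion (left, the insertion in brackets) and for the tested transposon silencing genes by role (right; filled points passed an adjusted p of 0.05; SoYb, with an SE of 1.96, is left out). Tg, at 5.77, is highest on the left, and spn-E, at 3.02, on the right.

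A list of 64 genes of small RNA pathways, heterochromatin and RNA export, here called silencing genes, was also tested. It was not limited to genes known to act on copia. Of the 56 members above the filter, 12 were called higher, 20 lower and 24 neither, with a median log2 fold change of -0.07. The share called was 57.1%, against 62.1% of all genes.

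In the siRNA pathway 1 of 5 tested genes rose and 1 fell, where 30.6% of all genes were higher and 31.5% lower. AGO2, the slicer Argonaute, had 7472, 7544, 7583 and 7709.7 normalized counts in libraries labelled ecd-RNAi and 6874, 7672, 7228 and 7206 in controls, and did not pass (log2 fold change 0.07, limma adjusted p = 0.146), although it did without control replicate 2 and with quantile normalization (adjusted p = 0.0381 and 0.0243). Dcr-2 had 3452, 3596, 3417 and 3436 in libraries labelled ecd-RNAi and 3824, 4049, 3909 and 3719.9 in controls, without overlap, and fell by 0.16 on the log2 scale (limma adjusted p = 0.00333, and 0.085 with quantile normalization). Hen1, the methyltransferase that protects small RNAs, had a log2 fold change of 0.22 (limma adjusted p = 0.0217), lost in 5 of 16 alternative fits, which gave adjusted p between 0.00599 and 0.201. Of the 5 tested miRNA genes AGO1, pasha and gw fell by 0.43, 0.27 and 0.26 and none rose. Dcr-1 and drosha were not called.

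Among piRNA genes 9 of 24 tested rose and 4 fell, where 30.6% of all genes were higher and 31.5% lower. With quantile normalization 9 rose and 8 fell. The helicase gene spn-E, which acts in germline piRNA amplification, had 1618, 2118, 1841 and 1594 normalized counts in libraries labelled ecd-RNAi and 203, 285, 218 and 184 in controls (log2 fold change 3.02, SE 0.14, limma adjusted p = 1.56e-07). The Tudor domain gene qin rose by 1.35 and nxf2, of the nuclear export factor family, by 0.99. piwi, the nuclear Argonaute, had 71.4, 58.4, 83.1 and 64.8 in libraries labelled ecd-RNAi and 35.6, 37.98, 29.4 and 29.6 in controls, without overlap, and rose by 1.04 (limma adjusted p = 0.000463). AGO3, an Argonaute of the germline piRNA cycle, rose by 0.32 (limma adjusted p = 0.00785); its gene lies within 5000 bases of the fragment copia{}5852. aub, its partner, was at 11.9 ± 4.10 in libraries labelled ecd-RNAi and 17.2 ± 5.98 in controls and did not pass (limma adjusted p = 0.258). The nuclease gene Tudor-SN fell by 0.80, and armi, shu and tapas by 0.41, 0.31 and 0.23. The gene vas, which defines germ cells, was below the filter.

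Of 14 tested heterochromatin genes 10 fell and none rose, where 31.5% of all genes were lower. With quantile normalization 7 fell, and in the other alternative fits 9 or 10. The 10 include G9a, whose groups overlapped (limma adjusted p = 0.0457). The gene of heterochromatin protein HP1a averaged 4347 ± 75.7 in libraries labelled ecd-RNAi and 5526 ± 360 in controls, falling by 0.34 on the log2 scale (limma adjusted p = 0.000153). The histone deacetylase gene HDAC1 fell by 0.55, Su(var)3-7 by 0.41 and the insulator protein gene su(Hw) by 0.33. Of 8 RNA export genes Nxt1 and sbr, the subunits of the main mRNA exporter, rose by 1.24 and 0.41, and tho2 and Hel25E, of the complex that loads it, fell by 0.33 and 0.30. The other 4 were not called, and of all genes 30.6% were higher and 31.5% lower.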

How the data were processed

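The authors deposited, per the file headers, a table of normalized counts: for each gene or insertion, a signal that need not be whole, in 8 libraries. The authors' deposited comparison gives a log2 fold change, p-values and, as a score, the Wald statistic, per the file headers. Per the submitters' processing notes FastQC, cutadapt 3.5, kallisto 0.46.1 and DESeq2 1.34.0 were used on BDGP6. Parameters, transcript models and strand handling are not stated in the labels or headers. Each column was tied to its library by the labels. Names and 1-based positions came from a gene name table and the Ensembl annotation of BDGP6. No genome sequence was used, so sequence identity, reading frames and repeats of the copies are not analysed here.

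The copia members, gene lists and tests were chosen with earlier results of these data known. Host genes overlap an insertion, and neighbours lie within 5000 bases. limma 3.58.1 in R 4.3.3 (lmFit, eBayes with a mean trend, two-sided, Benjamini-Hochberg adjustment, no covariate) was run on log2(value + 1) for rows, genes and insertions, with a mean of at least 10, and tested on simulated data; sums, ratios and shares carry no test. For low genes, fold changes on that scale can lie above or below the log2 of the ratio of means. Named insertions are the 8 with the highest mean, those leading in control and those with the highest and lowest ratios, and others named beside them were chosen after their values were seen. Named genes are the called hosts and neighbours with the largest changes, up to 20, and, in the silencing list, 6 fixed genes and up to 4 per direction and role. Alternatives were other pseudocounts, filters, scalings, a replicate block and leaving out each library.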

Additional observations from a re-analysis of the deposited data

Results flagged for a closer look

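In 14 of 130 groups of 4 libraries examined (65 results in 2 groups each), 1 library lay far from the other 3; chance flags about 1 in 20 groups, and copies that share reads are not independent. In 11 of these the library was control replicate 2, and in 3 another.

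Control replicate 2 was the high one for the copia sum (43613 normalized counts), for copia{}342 (9153), copia{}298 (4840), copia{}539 (3194), copia{}1349 (2198), copia{}837 (1149.6) and copia{}293 (361), for the sums of flea (9194) and invader4 (2787), and for the genes Tg (21.7) and CG14408 (202). Control replicate 1 was low for zormin (1937). Replicate 3 of the libraries labelled ecd-RNAi was low for AGO3 (1875), and replicate 1 was high for Su(var)3-7 (2210.3).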

How the results depend on the processing

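The log2 ratio of the copia sum, 6.30, lay between 6.14 and 6.80 when each library was left out, and moved by less than the spread between replicates in 19 of 20 alternatives; with insertions under 4000 bases alone it was 0.37, by the choice of fragments. Alternatives chosen after seeing the data gave 6.37 with FBti identifiers only and 6.67 without copia{}131 and copia{}324. The log2 ratio of all other insertions, 2.13, became 2.42 as a share of the library total, whose ribosomal RNA share differs between the groups, and ran from 2.03 to 2.22 without single libraries. Without RR51475, also chosen after seeing the data, it was 1.96. With quantile normalization 8 piRNA genes fell, against 4; the cause was not tested. All other counts stayed within 1.5 times. Of 44 named genes 39 kept their call in all 16 alternative fits.

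Same-numbered libraries of the groups did not deviate together (correlations between -0.08 and 0.03 over 10008 rows), and the other pairs gave -0.06 to 0.08. This gave no sign of pairing by number, but it cannot show that no batch was shared. With the replicate block the copia log2 ratio was 6.43, and 12 silencing genes rose and 19 fell, 15 genes holding or next to copia rose and 8 fell.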

Other observations

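The unnamed insertion row RR51007, of 5145 bases on chromosome 3L (24242517 to 24247661, minus strand), had 4552, 7156, 5627 and 4418 normalized counts in libraries labelled ecd-RNAi and 5.18, 112, 2.38 and 4.51 in controls, with replicate 2 again the highest in either group. Its family is not named in the annotation used here, and it is counted neither with copia nor with another family. The sum of all other insertions does include it.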
